A study of Mus musculus with 8 samples.

Results

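Immediate early genes are switched on within minutes of a stimulus, from transcription machinery already present in the cell, and 10 of them were followed here: Fos, Fosb, Jun, Junb, Jund, Egr1, Ier2, Atf3, Dusp1 and Nr4a1. They were found by matching the RefSeq transcript of each non-control probe to the gene's name, which gave 10 probes of 55681, 1 for each of the 10 genes among 20145 named genes on the array. The study set wild-type mice against mice without ACKR1 (atypical chemokine receptor 1, which binds chemokines but does not signal through G proteins) and asked how its loss bears on blood formation. Bone marrow was flushed from female mice aged 12 weeks on a C57/Bl6 background, the deficient line having been backcrossed to C57Bl/6J (more than 12 generations) and kept by crossing heterozygotes, and the controls were wild-type littermates. From each genotype 2 progenitor populations were sorted by flow cytometry. LSK cells lack lineage markers and carry Sca1 and cKit, and include haematopoietic stem cells. GMP cells, the granulocyte-macrophage progenitors, lack lineage markers and Sca1 and carry cKit, CD34 and CD16/32. Each of the 4 groups (wild-type LSK, deficient LSK, wild-type GMP and deficient GMP) had 2 arrays, 8 in all, and Cy3-labelled RNA was hybridised alone on each. The labels do not say whether the arrays of a group came from separate animals, so the p-values speak only to how far these samples lay apart, a spread that may be technical.

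The products of these genes fall into a few roles. Fos, Fosb, Jun, Junb and Jund are subunits of AP-1, a dimeric transcription factor downstream of MAP kinases, and Egr1, Ier2, Atf3 and Nr4a1 also act in the nucleus, while Dusp1 is a phosphatase that switches MAP kinases off again. In blood progenitors, cell dissociation, staining and sorting can themselves induce such genes, and members of the Nr4a, Egr and AP-1 families have been linked to the quiescence of stem cells.

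Of the 10 genes, Nr4a1 was the one that passed the test in any comparison: its signal was lower in GMP than in LSK, in wild type and in the average over genotypes. No member was called between deficient and wild-type samples in either population. Atf3 had the largest deficient minus wild type difference of the 10, at −3.02 on the log2 scale averaged over both populations, but the deficient arrays of 1 group lay up to 4.58 apart for this gene. On 1 deficient LSK array Atf3 was not well above background, so the size of that difference is uncertain.

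Signal strength differed among the arrays. On 7 of them 62.5% to 73.1% of non-control spots were well above background (the scanner software's own flag), and on deficient LSK replicate 2 the share was 34.3%, with a 75th percentile of signal of 24.6 against 197 to 770 on the others. All 8 arrays lay on 1 slide in 1 scan, with every deficient array in slide column 1 and every wild-type array in column 2, so slide column and genotype cannot be told apart. The Ackr1 probe, whose place relative to the deleted part is not given in the sources used here, read between −1.05 and −0.07 on the level scale used below and differed between genotypes by 0.08 in LSK (adjusted p = 0.954) and 0.36 in GMP (adjusted p = 1), so it does not check the labels. The sorted populations carried their own markers in wild type. There 6 of 10 LSK markers were called lower and 4 of 10 GMP markers higher in GMP than in LSK (1.86% of features called). Median differences were −4.31 and 4.77. In deficient samples the same medians were −1.26 and 2.95, with 0 markers called (0% of features). Deficient minus wild type, LSK markers had a median of −1.12 in LSK and 1.05 in GMP, and GMP markers 0.08 and −0.94. None of these genotype differences was called. How they bear on the immediate early genes was not tested. The deficient arrays also carried signal of genes that mark cells outside both gates, and which cells gave it was not tested. The summed signal of 9 mature neutrophil markers, in multiples of each array's 75th percentile, was 3.34 to 10.6 for the LSK arrays of wild type and 1350 to 3270 for those of deficient mice, and for GMP arrays 8.77 to 17.2 against 1250 to 3330, with 9 of 9 markers well above background on each deficient array and 6 to 8 on the wild-type arrays. For 8 erythroid markers the sums were 4.32 to 44.7 on wild-type arrays and 1140 to 8190 on deficient arrays. This separates the genotypes in both populations and touches every genotype comparison below, and its part in the differences of the immediate early genes was not tested.

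A level is the log2 of the background-corrected signal minus the log2 of the array's 75th percentile, so a level of 0 is signal equal to that percentile and 1 unit is a doubling. Levels of different genes come from different probes and are not set against each other. Differences were fitted with limma over all 28088 features, and a gene counts as called where the p, adjusted by Benjamini-Hochberg over those features, is under 0.05. All 10 members passed the filter on dim probes, which asked that 1 group or more have both of its arrays well above background. On single arrays, Junb was below that mark on deficient LSK replicate 2 and deficient GMP replicate 1, and Atf3 on deficient LSK replicate 2. In sorted bulk samples, fewer cells that express a gene and less of its RNA per cell cannot be told apart.

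Upstream sequence was searched for motifs of factors that are known to induce such genes. The CRE (TGACGTCA) and its short form (TGACG) are motifs bound by CREB and ATF proteins, which cAMP and stress kinases activate. RefSeq sequence of GRCm38.p6 was at hand for 8 of the 10 members, and the 250 bases before the annotated start were searched on both strands. The short form lay in 6 of the 8 (Atf3, Dusp1, Fos, Fosb, Junb and Nr4a1), against 17.8% of 32851 promoters of the same length, and the full CRE, which contains the short form on each strand, in Dusp1 alone against 1.55%. The G form of the EGR motif (GCGGGGGCG) lay in Fosb and Nr4a1, against 2.57% of promoters. The T form of the EGR motif (GCGTGGGCG, in 0.536% of promoters), the AP-1 motif (TGANTCA, in 6.75%) and the CArG box of serum response factor (in 1.47%) were in 0 of the 8, which says only that these letters are not in this window. A match is a description of letters, not evidence of binding. The sequences given here are the 250 bases before a RefSeq transcript start of the gene called between populations (Nr4a1), the gene with the largest genotype difference (Atf3), and of Fos and Dusp1 as the archetypal AP-1 gene and the one with the full CRE, each 5′ to 3′ on the gene's strand with the motif matches in capitals (TGACG, or CGTCA where it lies on the other strand, and the EGR motif likewise).
Nr4a1: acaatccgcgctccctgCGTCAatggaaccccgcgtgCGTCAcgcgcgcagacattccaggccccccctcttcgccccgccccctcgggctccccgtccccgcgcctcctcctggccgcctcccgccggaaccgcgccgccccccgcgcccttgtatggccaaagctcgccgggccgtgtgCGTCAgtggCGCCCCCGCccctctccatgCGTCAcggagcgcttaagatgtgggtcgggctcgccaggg
Atf3: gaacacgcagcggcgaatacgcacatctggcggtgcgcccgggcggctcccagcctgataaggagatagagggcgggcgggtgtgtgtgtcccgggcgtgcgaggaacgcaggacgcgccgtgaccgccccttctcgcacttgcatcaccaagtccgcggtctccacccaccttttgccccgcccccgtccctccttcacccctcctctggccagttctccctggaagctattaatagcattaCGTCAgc
Fos: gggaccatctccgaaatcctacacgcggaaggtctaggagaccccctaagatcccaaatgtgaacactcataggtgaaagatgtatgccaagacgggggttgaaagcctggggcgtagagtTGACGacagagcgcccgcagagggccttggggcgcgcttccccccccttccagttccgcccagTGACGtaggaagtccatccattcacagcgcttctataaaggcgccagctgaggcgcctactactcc
Dusp1: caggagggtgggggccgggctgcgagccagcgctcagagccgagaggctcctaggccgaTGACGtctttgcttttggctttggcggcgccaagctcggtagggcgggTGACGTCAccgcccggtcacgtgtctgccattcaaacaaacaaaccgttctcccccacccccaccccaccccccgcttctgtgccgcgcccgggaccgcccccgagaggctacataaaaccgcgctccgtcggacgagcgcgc
The Nr4a1 sequence is chr15:101266596-101266845 on the plus strand, which precedes a transcript start inside the span of the gene given below, with 4 short CRE forms and 1 EGR motif, all on the other strand. The Atf3 sequence is chr1:191183334-191183583 on the minus strand, with 1 short form at bases −7 to −3 before the start. The Fos sequence is chr12:85473640-85473889 on the plus strand, with short forms at −129 to −125 and −66 to −62. The Dusp1 sequence is chr17:26508473-26508722 on the minus strand, with the full CRE at −143 to −136 and a separate short form at −191 to −187.

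**Figure D1:**
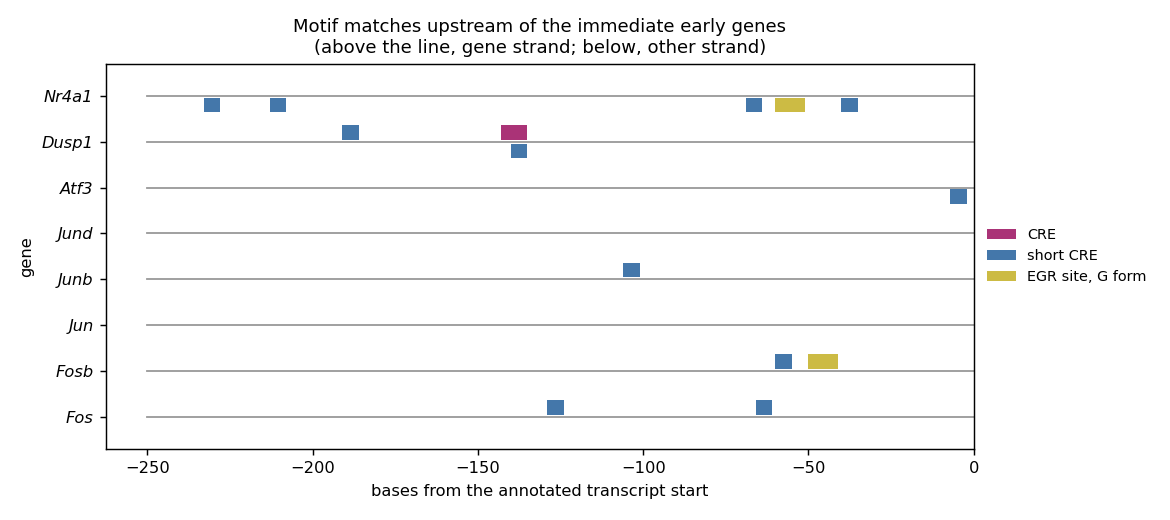
Motif matches in the 250 bases before a transcript start of 8 immediate early genes (for Nr4a1, and in part for Fosb, inside the gene's annotated span). The x axis is the distance in bases from the annotated transcript start, 1 line per gene, with matches on the gene's strand above the line and on the other strand below; the full CRE covers the short form it contains. Nr4a1 has 4 short CRE forms and Jun and Jund have none of the motifs searched.

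The AP-1 subunits came first in the comparison by role. Fos (NM_010234, GRCm38.p6 chromosome 12, 85473890 to 85477274), the inducible partner in AP-1 dimers, was measured by 1 probe printed on 10 spots. Its levels were 5.52 and 6.2 on the wild-type LSK arrays, 5.89 and 2.79 on the deficient LSK arrays, 5.48 and 5.05 on the wild-type GMP arrays and 5.56 and 5.30 on the deficient GMP arrays. Deficient LSK replicate 2 alone was low, and the other 7 arrays lay between 5.05 and 6.2. The difference, deficient minus wild type, was −1.52 in LSK (SE 0.94, limma adjusted p = 0.574) and 0.17 in GMP (95% interval −1.94 to 2.28, limma adjusted p = 1).

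Fosb (NM_008036, chromosome 7, 19302696 to 19310118), a close relative of Fos that also pairs with Jun proteins, read 5.36 and 5.32 on the wild-type LSK arrays, 5.54 and 2.56 on the deficient LSK arrays, 6.01 and 4.66 on the wild-type GMP arrays and 2.68 and 4.65 on the deficient GMP arrays. In each population 1 deficient array was low and the other reached, or came close to, the wild-type range. Averaged over populations the difference was −1.48 (SE 0.74, limma adjusted p = 0.445).

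Jun (NM_010591, chromosome 4, 95049036 to 95052222), the core AP-1 partner of Fos, ranged from 7.58 to 9.07 over the arrays. Its levels were 9.07 and 8.17 on the wild-type LSK arrays, 8.88 and 8.92 on the deficient LSK arrays, 8.59 and 7.58 on the wild-type GMP arrays and 7.88 and 8.42 on the deficient GMP arrays. Genotypes overlapped in both populations, with differences of 0.28 in LSK (95% interval −1.26 to 1.81) and 0.06 in GMP (95% interval −1.47 to 1.60). Deficient LSK replicate 2, low for Fos and Fosb, stood 0.04 above its replicate for Jun.

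Junb (NM_008416, chromosome 8, 84976909 to 84978748), an AP-1 subunit that can restrain Jun and myeloid growth in mice, was dim. It read −1.40 and −0.03 on the wild-type LSK arrays, −1.98 and −3.25 on the deficient LSK arrays, −1.58 and −0.51 on the wild-type GMP arrays and −4.53 and −0.74 on the deficient GMP arrays. In LSK the deficient arrays lay below both wild-type arrays, and in GMP they overlapped. The difference was −1.90 in LSK (SE 1.16, limma adjusted p = 0.574) and −1.59 in GMP (SE 1.16, limma adjusted p = 0.958), with 1 array of each deficient group not well above background.

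Jund (NM_010592, chromosome 8, 70697739 to 70700616), the AP-1 subunit with the most constant expression, had no value on deficient LSK replicate 1, where its spot was an outlier by the scanner software. Deficient LSK is therefore 1 array in its fit, the weak replicate 2. The levels were 6.22 and 6.49 on the wild-type LSK arrays, 7.28 on the remaining deficient LSK array, 6.97 and 6.18 on the wild-type GMP arrays and 6.06 and 6.07 on the deficient GMP arrays. The deficient LSK array lay above wild type and the deficient GMP arrays below it, with differences of 0.92 (SE 0.82) and −0.51 (SE 0.67). The difference between those was −1.43 (SE 1.05, limma adjusted p = 0.961).

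**Figure D2:**
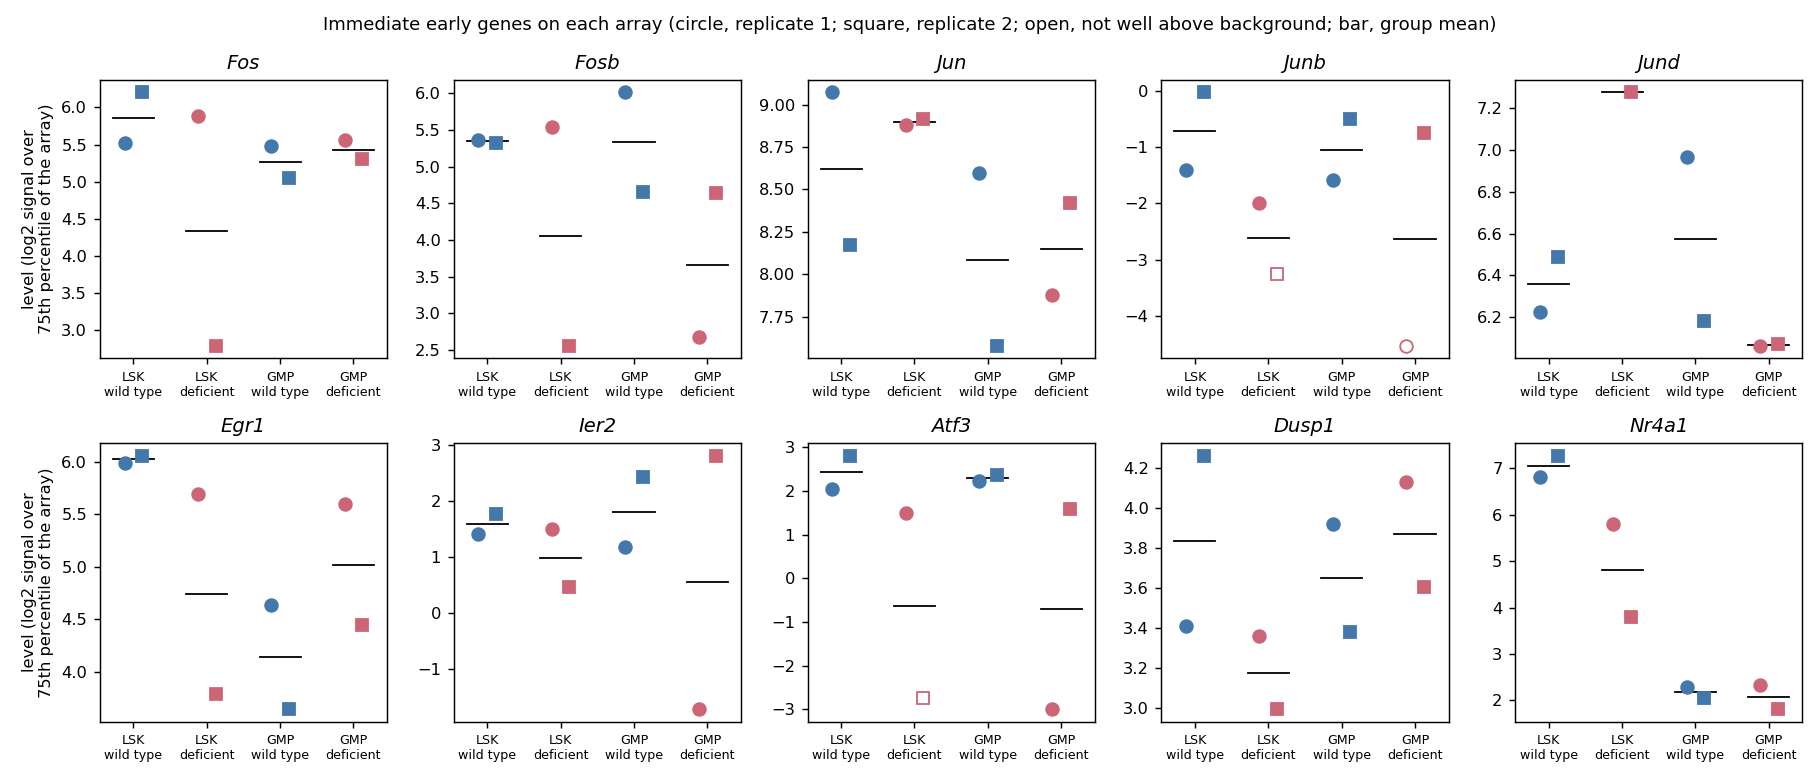
Level of each immediate early gene on each of the 8 arrays. The y axis is log2 signal over the array's 75th percentile, on a scale of its own in each panel; circles are replicate 1, squares replicate 2, open symbols were not well above background and bars are group means. Nr4a1 separates LSK from GMP, while Fos, Fosb and Atf3 have 1 low array in deficient LSK.

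The other nuclear factors differed more among arrays. Egr1 (NM_007913, chromosome 18, 34861207 to 34864956), a zinc-finger factor that keeps mouse stem cells quiescent and in their niche, read 5.99 and 6.06 on the wild-type LSK arrays, 5.69 and 3.79 on the deficient LSK arrays, 4.64 and 3.64 on the wild-type GMP arrays and 5.60 and 4.44 on the deficient GMP arrays. In wild type the GMP arrays lay below both LSK arrays, with a log2 difference of −1.88 (SE 0.82) that did not pass (limma adjusted p = 0.568). Deficient samples gave GMP minus LSK of 0.28 (95% interval −1.55 to 2.10), with overlapping arrays. The genotype difference was −1.28 in LSK and 0.88 in GMP, and the difference between them was 2.16 (SE 1.16, limma adjusted p = 0.961).

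Ier2 (NM_010499, chromosome 8, 84661331 to 84662852), a small nuclear protein induced by serum and growth factors, read 1.42 and 1.77 on the wild-type LSK arrays, 1.49 and 0.46 on the deficient LSK arrays, 1.17 and 2.43 on the wild-type GMP arrays and −1.71 and 2.81 on the deficient GMP arrays. Its lowest and highest levels of all 8 arrays were the 2 deficient GMP arrays, 4.52 apart. Only 0.434% of all features differed as much between that pair. Neither genotype difference passed (for LSK −0.62 with a limma adjusted p = 0.818, for GMP −1.25 with a limma adjusted p = 0.964).

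Atf3 (NM_007498, chromosome 1, 191170296 to 191183333), a stress-induced member of the ATF/CREB family, read 2.05 and 2.81 on the wild-type LSK arrays, 1.5 and −2.75 on the deficient LSK arrays, 2.23 and 2.36 on the wild-type GMP arrays and −2.99 and 1.59 on the deficient GMP arrays. All 4 deficient arrays lay below all 4 wild-type arrays. In each population, however, 1 deficient array was close to wild type and the other was far below. The low LSK array was not well above background for Atf3, so the sizes of the LSK and averaged differences are uncertain. Group means for wild type against deficient were 2.43 ± 0.54 against −0.62 ± 3.01 among LSK arrays and 2.29 ± 0.09 against −0.70 ± 3.24 among GMP arrays (SD, n = 2 arrays each). The genotype difference was −3.05 in LSK (SE 1.55, limma adjusted p = 0.551), −2.99 in GMP (SE 1.55, limma adjusted p = 0.955) and −3.02 averaged (SE 1.09, 95% interval −5.47 to −0.57, unadjusted p = 0.0205, limma adjusted p = 0.377). Without deficient LSK replicate 2 and deficient GMP replicate 1 the averaged difference was −0.81 (limma adjusted p = 0.72). With the replicate number as a block within each population the averaged difference was called (limma adjusted p = 0.00179), although the numbers did not pair the samples. That fit called 905 of 28088 features, against 169 without the block.

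Nr4a1 (NM_010444, chromosome 15, 101253902 to 101274795), the orphan nuclear receptor Nur77, had the clearest pattern of the 10. Its levels were 6.81 and 7.27 on the wild-type LSK arrays, 5.81 and 3.79 on the deficient LSK arrays, 2.30 and 2.06 on the wild-type GMP arrays and 2.33 and 1.81 on the deficient GMP arrays. Every LSK array was above every GMP array, and the GMP arrays of both genotypes lay within 1.81 to 2.33. Its mean was 7.04 ± 0.32 for wild-type and 4.80 ± 1.43 for deficient LSK, against 2.18 ± 0.17 for wild-type and 2.07 ± 0.36 for deficient GMP (SD, n = 2 arrays each).

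In wild type Nr4a1 was 29.2-fold lower in GMP than in LSK (log2 difference −4.87, SE 0.77, limma adjusted p = 0.0135), where 1.86% of features were called. This is the genotype in which the neutrophil and erythroid marker sums were low. Averaged over genotypes it was 13.9-fold lower (−3.80, SE 0.55, limma adjusted p = 0.00575), where 3.44% of features were called. In deficient samples the difference was −2.73 (SE 0.77, limma adjusted p = 0.168), where 0% of features were called, although 4697 features had an unadjusted p under 0.05. The averaged call held under each of 18 alternatives, with differences of −4.56 to −3.29. The wild-type call was lost on leaving out any 1 wild-type array: the adjusted p was 0.114 or 0.139 without an LSK array and 0.0946 or 0.137 without a GMP array. It was also lost with quantile normalization (−5.31, adjusted p = 0.0586) and with scaling to the median (−4.54, adjusted p = 0.1).

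Between genotypes Nr4a1 fell short of a call. In LSK both deficient arrays were below both wild-type arrays, with a difference of −2.24 (SE 0.77, unadjusted p = 0.0163, limma adjusted p = 0.524). In GMP the difference was −0.11 (95% interval −1.84 to 1.62). The interaction was 2.13 (SE 1.09, limma adjusted p = 0.961), so a genotype difference particular to LSK was not shown. With deficient LSK replicate 1 left out, so that the weak array stood alone for its group, the LSK difference was −3.25 and was called (limma adjusted p = 0.0405). Without replicate 2 it was −1.23 (limma adjusted p = 1).

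The feedback gene Dusp1 (NM_013642, chromosome 17, 26505591 to 26508472), a phosphatase of ERK, JNK and p38 kinases, ranged from 3.0 to 4.26 over the arrays. It read 3.41 and 4.26 on the wild-type LSK arrays, 3.36 and 3.0 on the deficient LSK arrays, 3.92 and 3.38 on the wild-type GMP arrays and 4.13 and 3.60 on the deficient GMP arrays. The deficient LSK arrays were just below wild type and the GMP arrays overlapped. Its difference was −0.66 in LSK (95% interval −2.13 to 0.82) and 0.22 in GMP (95% interval −1.26 to 1.69).

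**Figure D3:**
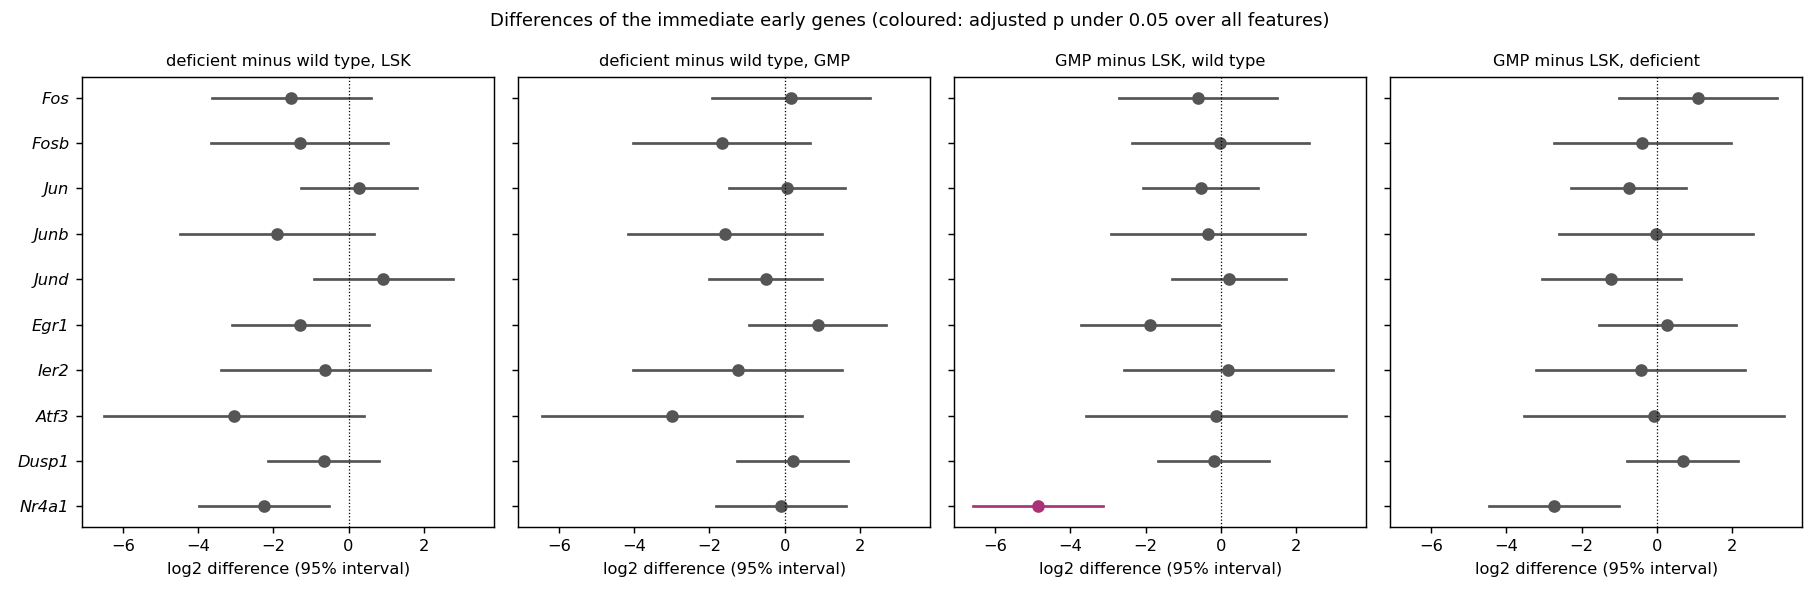
Fitted log2 differences of the 10 immediate early genes, with 95% intervals from limma, in 4 comparisons. The x axis is the log2 difference and each line is 1 gene; a coloured point passed an adjusted p under 0.05. Nr4a1 in wild-type GMP minus LSK, at −4.87, is the one coloured point, and most other intervals span 0.

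Read as a list, 0 of 10 members were called between genotypes in LSK, where 0.239% of all features were called, 0 of 10 in GMP (0.146% of features) and 0 of 10 in the average (0.602% of features). For the interaction 0% of features were called, while 695 had an unadjusted p under 0.05, none of them a member. In LSK 8 members had a difference below 0 and 2 above, with a median of −1.29 against 0.11 for all features. In GMP it was 6 below and 4 above, median −0.31 against 0.16, and in the average 8 below and 2 above, median −0.81 against 0.17.

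Counting members whose arrays did not overlap gives a similar picture. In LSK 5 members (Junb, Egr1, Atf3, Dusp1 and Nr4a1) were lower on both deficient arrays and 1, Jund, was higher on its single array, where 21.1% and 16.4% of all features were. In GMP 3 (Fosb, Jund and Atf3) were lower and 0 higher, where 19.5% of features were lower and 20.1% higher. Across all 4 deficient arrays 1 member (Atf3) was lower and 0 higher, where 1.26% of features were lower and 2.99% higher. Between populations, 3 members (Fos, Egr1 and Nr4a1) were lower in wild-type GMP and 0 higher (20.2% and 28.3% of features). In deficient samples 3 members (Jun, Jund and Nr4a1) were lower in GMP and 1 (Dusp1) higher (18.6% and 18.4% of features). For Jund the deficient LSK side was again a single array. Over all arrays 1 member (Nr4a1) was lower and 0 higher (4.69% and 7.95% of features).

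The LSK shift rested on 1 array. In each population, arrays that share a replicate number also shared a slide row, so each row gives a deficient minus wild type difference of its own. In the LSK row of replicate 1 the members' median was −0.19, with a range of −1.0 to 0.37, and the median of all features was −0.17. In the LSK row of replicate 2, which holds the weak array, the members' median was −2.52 and that of all features 0.51. There Atf3, not well above background on the weak array, differed by −5.55, Nr4a1 by −3.48 and Fos by −3.41. In the fit, the members' LSK median was −0.33 without deficient LSK replicate 2 and −2.38 without deficient LSK replicate 1, and in the latter case Fos and Nr4a1 were called, along with 2827 of 28086 features, against 67 in the fit of all arrays. Fos was also called higher in GMP than in LSK among deficient samples there (limma adjusted p = 0.0388), where 4258 of 28086 features were called, against 0.

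In GMP the array that stood apart was deficient replicate 1. In its row the members' median was −0.81 against 0.35 for all features, with Atf3 at −5.22, Fosb at −3.33, Junb at −2.95 and Ier2 at −2.89. In the row of replicate 2 the median was 0.11 against −0.08 for all features, and the range was −0.77 to 0.84. Not every member was low on deficient GMP replicate 1: in its row 6 members lay below 0 and 4 above. Those above were Egr1 (0.96), Dusp1 (0.21), Fos (0.09) and Nr4a1 (0.03).

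**Figure D4:**
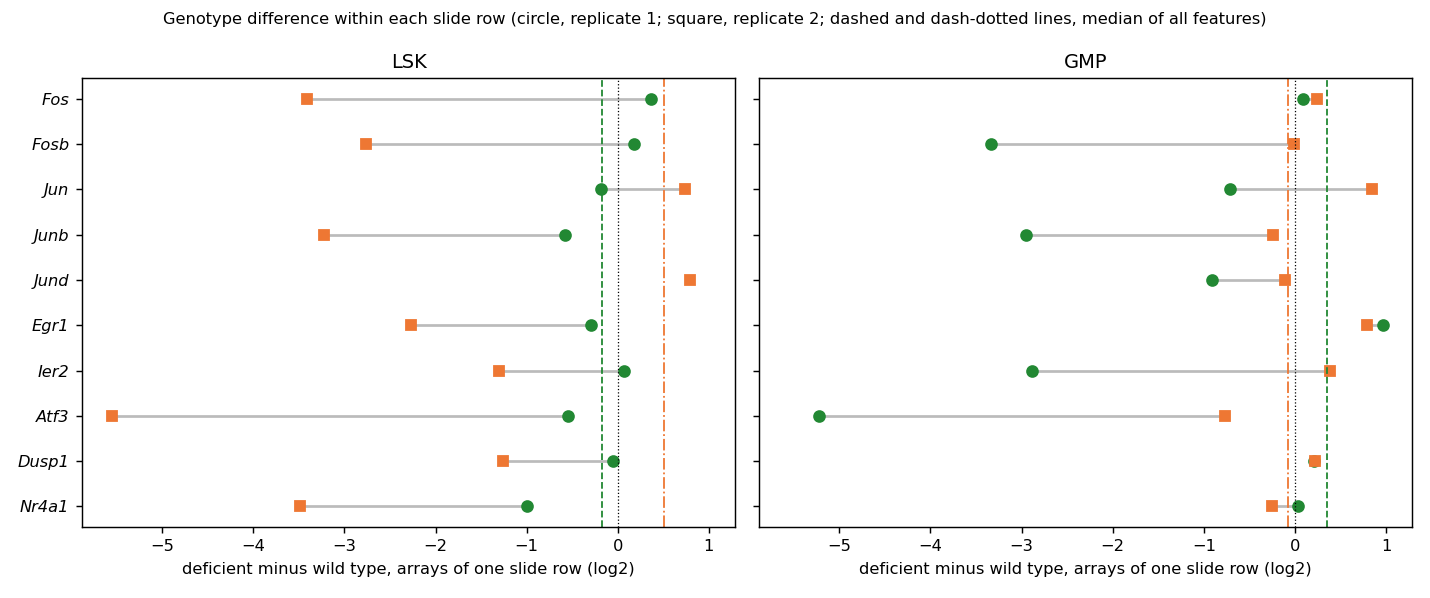
Deficient minus wild type difference of each member between the 2 arrays of a population in 1 slide row. The x axis is the log2 difference; circles are replicate 1, squares replicate 2, and dashed and dash-dotted lines mark the median of all features for replicates 1 and 2. Low values lie in the row of replicate 2 in LSK and of replicate 1 in GMP.

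The replicates of wild type were closer. Between deficient LSK replicates, 8 members were lower on replicate 2 and 1 higher, from −4.25 (Atf3, not well above background on replicate 2) to 0.04 (Jun). A gap as large as that of Atf3 was seen for 1.71% of all features, and as large as those of Fos (−3.09) and Fosb (−2.98) for 7.73% and 8.86%. Between deficient GMP replicates the gaps of Atf3 (4.58) and Junb (3.79) were reached by 0.402% and 1.37% of features. Between wild-type replicates no member's gap went past 1.38 in either direction. Set against all features, some gaps in wild-type GMP were also uncommon. Those of Fosb (−1.35) and Ier2 (1.25) were reached by 6.49% and 7.42% of features, and those of Nr4a1 and Atf3 by 62.4% and 78.9%. Across all features the SD of the gap was 1.80 for deficient against 1.02 for wild-type LSK, and 1.47 for deficient against 0.74 for wild-type GMP, so the deficient pairs spread more across the array as a whole. Of the 10 members, 4 had their lowest level of all 8 arrays on deficient GMP replicate 1 and 3 on deficient LSK replicate 2, where 11.9% and 27.3% of all features did.

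Members did not move as 1 block. Over the 8 arrays, 31 of 45 pairs of members had a Pearson correlation above 0, with a median of 0.19 and a range of −0.64 to 0.93. The points share arrays and scaling, and 1 or 2 low arrays weigh on each value, so these are descriptions. Atf3 went with Fosb (r = 0.929) and Junb (r = 0.922), and Junb with Ier2 (r = 0.913), all genes low on deficient GMP replicate 1. Egr1 went with Nr4a1 (r = 0.722) and Fos (r = 0.706). On the 7 arrays other than deficient LSK replicate 2 these 5 values were 0.883, 0.937, 0.923, 0.807 and 0.829. Deficient GMP replicate 1 stayed among the 7, so the values among Atf3, Fosb, Junb and Ier2 still include that low array.

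Outside the members and the lists below, the genes closest to the mean of the members' centred levels over 8 arrays included Satb1 (r = 0.994), Cand2 (r = 0.99), Pfkm (r = 0.986) and Tbc1d10c (r = 0.985). Satb1, a chromatin organiser, read 2.94 and 3.79 on the wild-type LSK arrays, 2.56 and −0.11 on the deficient LSK arrays, 1.84 and 1.64 on the wild-type GMP arrays and −0.69 and 1.53 on the deficient GMP arrays. It was low on the same 2 deficient arrays as Atf3. They were picked as the highest of all named features, and the likeness is a description.

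Other genes of the early response were read from lists. Of those named, Maff, Mafk, Jdp2, Fosl1, Csrnp1, Ier3, Dusp4, Map2k1, Braf, Mapkapk2, Creb1 and Hspa1a were not well above background on deficient LSK replicate 2. Dusp5 was not on that array, wild-type GMP replicate 1 and deficient GMP replicate 1. The sizes of the differences of all these genes are therefore uncertain. Of 12 further AP-1 family genes 10 were tested, and 0 were called in any comparison. Maff, a small Maf protein without an activation domain, read 0.94 and 1.76 on the wild-type LSK arrays, −0.19 and −2.76 on the deficient LSK arrays, 1.06 and 0.21 on the wild-type GMP arrays and −0.99 and −1.07 on the deficient GMP arrays. All 4 deficient arrays were below all 4 wild-type arrays, with an averaged difference of −2.25 (SE 0.62, limma adjusted p = 0.283). The list's median in LSK was −1.11, with 9 of 10 genes below 0, and in GMP −0.03. Mafk, a relative of Maff, differed between genotypes by −2.12 (SE 0.70, limma adjusted p = 0.356). GMP minus LSK averaged −2.44 for Fosl1, a Fos relative (SE 0.64, limma adjusted p = 0.0746). Neither deficient GMP array, nor deficient LSK replicate 2, was well above background for Fosl1. That LSK array read −1.40, so the size of the Fosl1 difference is uncertain. The same difference was −1.46 for Batf2 and 1.38 for Jdp2.

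Of 13 further early transcription factors 12 were tested and 0 called. Nr4a2, the close relative of Nr4a1, read 1.55 and 1.76 on the wild-type LSK arrays, 0.85 and 0.79 on the deficient LSK arrays, 0.51 and −0.31 on the wild-type GMP arrays and −1.32 and −1.27 on the deficient GMP arrays. Like Nr4a1, it was below every LSK array on every GMP array, with an averaged difference of −1.83 (SE 0.45, limma adjusted p = 0.0574). For Cebpd, a C/EBP factor of myeloid cells, GMP minus LSK was 2.82 (SE 0.67, limma adjusted p = 0.0518), and for Klf6, a zinc-finger factor, −1.01 (SE 0.46, limma adjusted p = 0.26). Csrnp1 differed by −2.53 between genotypes on average (SE 0.87, limma adjusted p = 0.368) and was not measured above background on deficient LSK replicate 2. Myc, a growth regulator, had its lowest level on that array, at −1.16.

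Of 25 feedback and effector genes all 25 were tested, and Dusp4 alone was called. The call was in GMP minus LSK averaged over genotypes, where 3.44% of all features were called. Dusp4, a nuclear MAP kinase phosphatase related to Dusp1, read −1.31 and −1.27 on the wild-type LSK arrays, −2.27 and −2.77 on the deficient LSK arrays, −4.56 and −4.06 on the wild-type GMP arrays and −5.81 and −6.98 on the deficient GMP arrays. It was lower in GMP averaged over genotypes (−3.45, SE 0.48, limma adjusted p = 0.00486). Neither deficient GMP array, nor deficient LSK replicate 2, was well above background for it. In deficient samples the measured means were −6.39 in GMP and −2.52 in LSK (limma adjusted p = 0.14), and no fold is given because the LSK mean rests in part on an array that did not measure the gene. In wild type the difference was −3.02 (SE 0.68, limma adjusted p = 0.0629).

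Between genotypes, Per1, a clock gene induced by cAMP and glucocorticoids, read 4.12 and 4.83 on the wild-type LSK arrays, 2.81 and 1.35 on the deficient LSK arrays, 3.66 and 2.95 on the wild-type GMP arrays and 1.80 and 1.98 on the deficient GMP arrays. The 4 deficient arrays were below the 4 wild-type arrays, with an averaged difference of −1.90 (SE 0.51, limma adjusted p = 0.262). Ier3, an early-response survival factor, differed by −2.72 (SE 0.88, limma adjusted p = 0.351) and also did not overlap. GMP minus LSK in wild type was −3.53 for Zfp36l1, which destabilises AU-rich mRNA (SE 0.81, limma adjusted p = 0.0695). On the deficient arrays Zfp36l1 read 2.85 and 2.10 in LSK and 2.47 and 0.20 in GMP, and these overlapped. For Dusp5, an ERK phosphatase, GMP minus LSK averaged −2.65 (SE 0.62, limma adjusted p = 0.05002, not called). The list had 20 of 25 genes below 0 in LSK (median −0.66) and 16 of 25 in GMP (median −0.35).

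Of 20 kinases and factors upstream (the MAP kinase cascade, SRF and CREB), all 20 were tested and 0 called. Between genotypes their median was −0.63 in LSK and −0.02 in GMP, and 13 of 20 had their lowest level on deficient LSK replicate 2. Map2k1, the kinase MEK1 of the ERK branch, differed by −1.84 on average (SE 0.81, limma adjusted p = 0.406) and Mapk3, the kinase ERK1, by −1.45 (SE 0.67, limma adjusted p = 0.42). The same difference was −1.36 for Braf, a kinase above MEK1 (SE 0.61, limma adjusted p = 0.408). GMP minus LSK averaged 1.64 for Rps6ka1 and 2.31 for Mapkapk2, kinases below ERK and p38, and 1.41 for Creb1, the CREB gene itself, with adjusted p of 0.124, 0.179 and 0.205 in limma.

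Heat shock genes report stress of another kind. Of 12 listed 11 were tested and 0 called. In deficient against wild-type LSK 9 of 11 lay below 0 (median −0.81), and in GMP 8 of 11 above 0 (median 0.61). For 9 of 11 the lowest array was deficient LSK replicate 2. Hspa1a, the inducible Hsp70, whose near-identical copy Hspa1b may share its probe, read −1.38 and −3.17 on the wild-type LSK arrays, 0.51 and −1.43 on the deficient LSK arrays, 3.06 and 1.11 on the wild-type GMP arrays and 0.27 and 3.51 on the deficient GMP arrays. GMP minus LSK was 3.35 on average (SE 0.85, limma adjusted p = 0.066), with overlapping arrays. The same difference was 1.84 for Hspe1, 1.53 for Hsph1 and 1.26 for Hsp90aa1, all chaperones or their partners, with adjusted p of 0.0956, 0.136 and 0.285 in limma. The immediate early genes had a median GMP minus LSK of −0.26 in wild type, −0.23 in deficient samples and −0.19 averaged, against 0.01, −0.07 and −0.05 for all features. With median scaling the members' medians turned to 0.07, 0.37 and 0.28. Leaving out 1 array also turned them, to 0.10 in wild type without wild-type LSK replicate 2, and without deficient LSK replicate 1 to 0.74 in deficient samples and 0.15 averaged. Without deficient GMP replicate 1 they were 0.51 and 0.15.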

How the data were processed

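Total RNA of sorted LSK and GMP cells was measured on 8 Agilent 1-colour arrays. Per the file headers, Agilent Feature Extraction 10.7.3.1 wrote the deposited processed signal, an intensity on a linear scale after background subtraction. The table of values deposited by the authors is on a log2 scale. Set against the scanner values it matched log2 signal over the 75th percentile, centred on each probe's median (r of 0.9997 to 1). Its column medians ran from −0.26 to 1.2. Whether the authors took other steps is not given in the sources used here.

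From the intensities, log2 processed signal minus the array's 75th percentile was computed. Control and outlier spots were left out (104 to 139 outliers per array, 0 saturated), and spots of 1 probe averaged. A probe was kept where some group had both arrays well above background (39098 of 55681). Accessions were named through the RefSeq genes of GRCm38.p6 (26582 probes), while the array design names build mm9. Each gene was represented by its brightest probe, which gave 28088 features. limma 3.58.1 in R 4.3.3 (with the package data.table, version 1.17.8) fitted 4 group means over 8 arrays, with 4 residual degrees of freedom and Benjamini-Hochberg adjustment over all features. Figures were drawn with Python and matplotlib. The procedure was tested on simulated data. The number of arrays limits the precision.

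Members and lists were chosen with earlier results of these data known. Named are all 10 members, list genes called in any comparison, at most the 3 with the smallest p per list in the averaged genotype and population comparisons, and the 5 genes most like the members' mean, of which 1 is not reported here. Same-numbered replicates shared a slide row, but their deviations correlated at −0.34 in LSK and 0.26 in GMP, so the numbers were not taken as pairs. Alternatives were quantile and median scaling, normexp (on the median signal, since the files hold no mean signal), 2 other filters on dim probes, the mean of a gene's probes, array weights, replicate blocks, fewer arrays and the authors' deposited log2 values.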

Additional observations from a re-analysis of the deposited data

Results flagged for a closer look

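Jund went opposite ways in the 2 populations. Its 1 deficient LSK array with a value, the weak replicate 2, lay above both wild-type arrays. Both deficient GMP arrays lay below both wild-type arrays. Across the alternatives its LSK difference ran from −1.10 to 1.11, with the same sign in 16 of 18. The difference between the genotype differences was −1.43 (limma adjusted p = 0.961), so it was not called.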

How the results depend on the processing

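No member difference called in the fit of all arrays changed sign. Others did, and so did members' medians: Ier2 in GMP ran from −3.51 to 1.01. Fos in LSK, called in 1 alternative, ran from −3.07 to 0.03. The counts of members called kept within 1.5 times in 127 alternatives and moved in 10. For GMP minus LSK in wild type the count fell from 1 to 0 with quantile normalization and with scaling to the median, and ranged from 0 to 1 on leaving out 1 array. In the genotype average it rose from 0 to 1 (Atf3) with the replicate block within each population (limma adjusted p = 0.00179), where 905 of 28088 features were called. It rose likewise with a crossed replicate block in LSK, chosen after seeing the data (1 member, limma adjusted p = 0.0215). There 1313 features were called, against 169 as reported. The blocks changed no other member's call. On leaving out 1 array the count was 0 to 2 in LSK and 0 to 1 for GMP minus LSK in deficient samples; a lone array was assumed to vary like the other groups. On leaving out 1 array, the members' median ranged from −2.38 to −0.33 in LSK (−1.29 as reported), −0.54 to −0.0046 in GMP (−0.31), −0.92 to 1.57 for the interaction (0.18), −0.57 to 0.10 for GMP minus LSK in wild type (−0.26), −1.29 to 0.74 in deficient (−0.23) and −0.73 to 0.15 averaged (−0.19). The last 3 turned to 0.07, 0.37 and 0.28 with median scaling, and with quantile normalization the average gave −0.97. Among probes well above background on all arrays the GMP median was 0.06.

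Counts over all features moved more. Across the alternatives they ran from 0 to 2827 in LSK (67 as reported), 0 to 193 in GMP (41), 40 to 1313 in the average (169), 0 to 14 for the interaction (0), 17 to 2085 in wild-type GMP minus LSK (522), 0 to 4258 in deficient (0) and 260 to 4104 averaged (967). Of the latter 33.9% were higher in GMP, against 54.7% with median scaling, 73.1% with normexp and 57.4% with probes well above background on all arrays. Of calls in wild type 27% were higher, against 37.5% with median scaling and 38.9% with normexp. Scaling moved the median of all features: in LSK it was 0.11, and −0.46 with median scaling, −0.21 with quantile normalization and 0.41 with normexp, and in GMP minus LSK averaged it was −0.05, and 0.42 with median scaling. Fits on only the arrays compared gave no value for averages and the interaction, and the within-population blocks none for population comparisons. Weak signal on deficient LSK replicate 2 limits what its group can show.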
